A study of Danio rerio with 12 samples.

Results

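Genes of the focal adhesion and of actin regulation were examined in whole zebrafish larvae with and without functional Elmo1. The list holds 60 gene names, grouped here by role. These names were chosen with earlier results of these data known. By symbol, 40 names were found as written and 20 by the upper-case name of the orthologue without the copy letter. As several zebrafish copies can carry the same orthologue name, the names led to 66 of 32520 Ensembl genes, 6 more than the number of names. All 66 genes passed the filter on low counts. Where several copies carry 1 symbol, the Ensembl identifier is given and no copy letter is assigned.

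Focal adhesions are the sites at which integrins link the extracellular matrix to actin filaments inside the cell. Talin and kindlin bind the integrin tail, vinculin, paxillin, tensin and the Ilk complex build up the site, and filamin and alpha-actinin cross-link the filaments behind it. Elmo proteins act with Dock proteins as an exchange factor for Rac, and active Rac turns on the WAVE complex, which makes the Arp2/3 complex start branched actin filaments, and Pak kinases, which act through Lim kinase on cofilin. These proteins serve cell migration, and in zebrafish larvae they also anchor muscle fibres at the myotendinous junction.

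RNA sequencing covered 12 samples of larvae aged 120 hpf (hours post fertilization), 6 elmo1+/+ and 6 elmo1-/-, each pooled from 30 larvae. The genotype field of the elmo1-/- samples reads hz, which the labels do not explain. The knockout line was made with CRISPR/Cas9 in the reporter line Tg(fli1:EGFP), whose endothelial cells express EGFP, and carries an insertion in elmo1 that shifts the reading frame and brings an early stop codon. Pigment formation was suppressed in some of the study's larvae with PTU, and the labels do not say whether this holds for these samples. The titles give replicate numbers but do not say whether the pools came from separate clutches, so the p-values measure the spread between these pools.

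Total estimated counts, in units of 1e+06, lay between 20.8 and 21.8 per sample. elmo1 itself (ENSDARG00000098753) ranged from 121.7 to 143.3 CPM (counts per 1e+06 counts) in elmo1+/+ and from 97.1 to 119.7 CPM in elmo1-/- samples, without overlap. The log2 fold change of counts from elmo1+/+ to elmo1-/- (log2FC) was -0.26 for this gene (SE 0.059), with an edgeR adjusted p of 0.137 over all genes, which missed the threshold of 0.05, and a DESeq2 adjusted p of 0.00817, which passed it. Without elmo1-/- sample 5 the edgeR adjusted p of elmo1 was 0.164. Markers of skeletal muscle, smooth muscle, leukocytes, epidermis, endothelium and neurons were all detected. Of the markers sought, mylpfa, mylz3, desmb, mpx, mpeg1.1 and pecam1 were not found by symbol, and 5 of 7 smooth muscle genes were tested. Among the marker genes tested, FLI1 alone passed the threshold, with 101.5 to 108.6 CPM in elmo1+/+ and 72.2 to 89.6 CPM in elmo1-/- samples (edgeR adjusted p = 0.00447). The fli1 promoter drives the reporter, and whether reads of the reporter or its insertion site take part in this value was not tested. As whole larvae were used, fewer cells of a type and less RNA per cell cannot be told apart in any comparison here.

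The levels of the 66 genes in TPM (transcripts per 1e+06 transcripts), which are divided by transcript length and can be compared between genes, spanned from 0.609 to 4226 as means of the 12 samples, with a median of 17.6. Together the genes made up 0.907% of all transcripts in elmo1+/+ and 0.871% in elmo1-/- larvae. The group of actins, profilins and cofilins supplied 82.8% of this sum in elmo1+/+ larvae. Mean TPM exceeded 100 in 7 genes and lay under 10 in 24 genes.

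**Figure D1:**
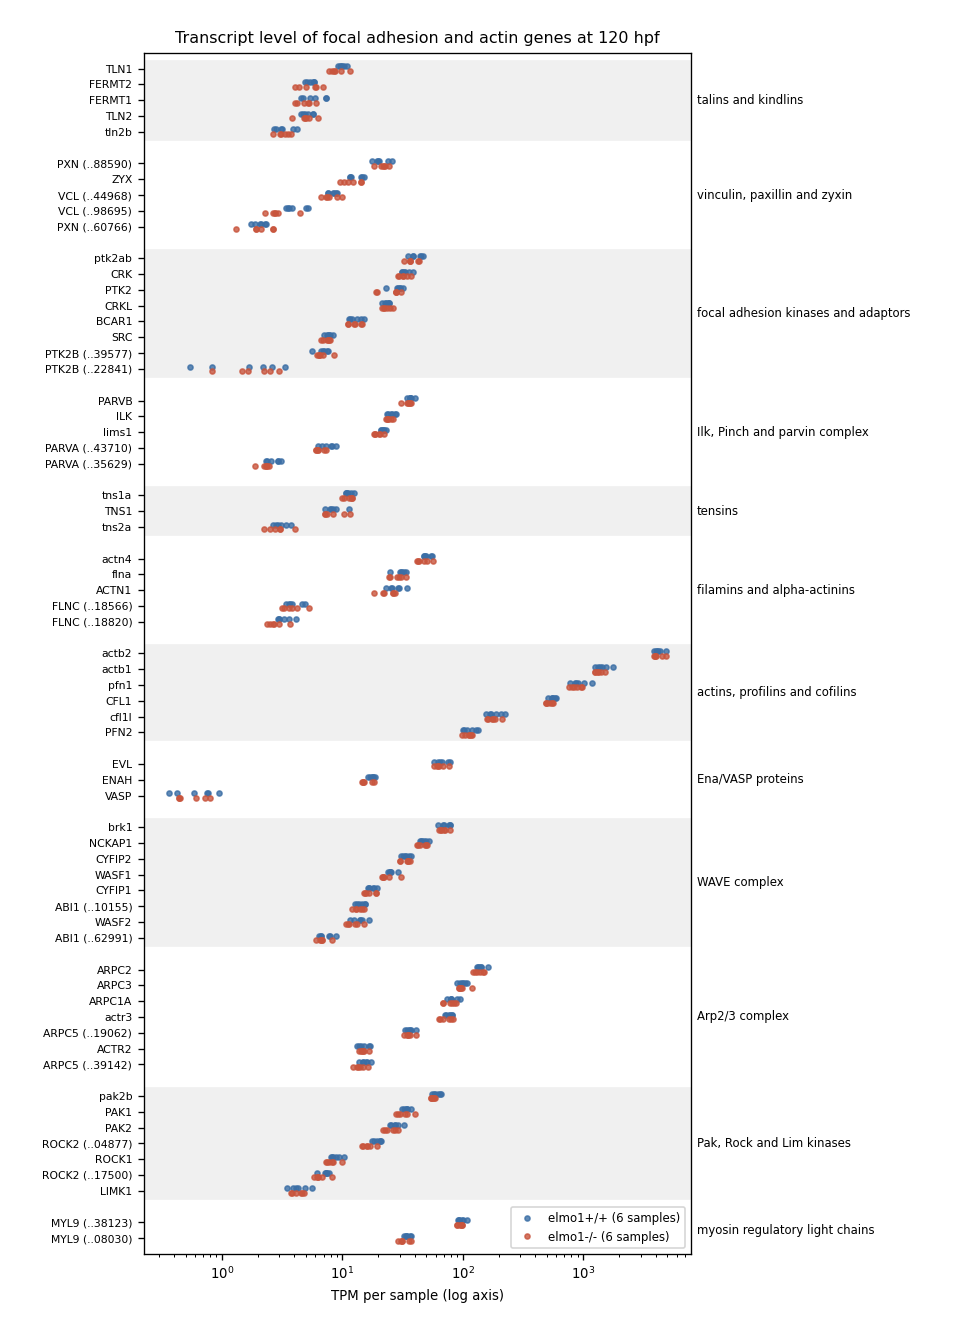
TPM of each gene reported here on a log axis, grouped by role, with 1 point per sample for the 6 elmo1+/+ and 6 elmo1-/- samples. The actins, profilins and cofilins lie above 100 TPM on average, VASP lies near 0.6 TPM, and the points of the genotypes overlap in all genes plotted.

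Differences between the genotypes were small in these genes, at a median absolute log2FC of 0.048 beside 0.071 over all genes tested. Their standard errors, given below, were smaller as well, so the lower median does not show that these genes changed less than others. Of the 66 genes, 0 passed an adjusted p of 0.05 between elmo1-/- and elmo1+/+ larvae (edgeR quasi-likelihood test, Benjamini-Hochberg over 21830 genes), where 0.234% of all genes tested did. The smallest adjusted p was 0.534. DESeq2, which called 0.444% of all genes, and limma-trend on log2(TPM + 1), which called 0.192%, also called 0 of the 66. An unadjusted p under 0.05 was found by edgeR for 2 of the 66 genes (3.03%), VCL (ENSDARG00000098695) and PARVA (ENSDARG00000043710), against 6.16% of all genes tested. Both were lower in elmo1-/- larvae, as were 3.1% of all genes at that p, and 3.06% were higher. The same count was 2 by DESeq2, against 5.5% of all genes, and 5 by limma-trend, against 6.33%. In 0 of the 66 genes were the genotypes free of overlap, against 0.513% of all genes tested, 0.279% lower and 0.234% higher in elmo1-/- larvae.

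The intervals, taken gene by gene without adjustment for the number of genes, show how large a difference these samples leave room for. The median standard error of the log2FC was 0.070 in the 66 genes and 0.10 over all genes tested. In 63 of the 66 genes the 95% interval of the log2FC lay within -0.5 and 0.5, that is within 1.41-fold in either direction, and in 54 genes within -0.3 and 0.3. The exceptions to the wider bound were VASP and PTK2B (ENSDARG00000022841), whose counts were low or variable, and VCL (ENSDARG00000098695). The log2FC values ran from -0.41 to 0.10 with a median of -0.023, beside a median of 0.0043 over all genes. A log2FC below 0 was found for 43 of the 66 genes, and for 48.3% of all genes tested.

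The count of genes below 0 depended on the unit. By log2(TPM + 1) it was 64 of 66, with a median of -0.067. On that scale, however, 67.1% of all genes lay below 0, and the median of all genes moved to -0.038. Relative to the median of all genes, 45 of the 66 genes lay lower by counts and 48 by log2(TPM + 1). Among the genes given by sample below, ptk2ab, tns1a, EVL, actb2 and MYL9 (ENSDARG00000038123) were above 0 by counts and below 0 by log2(TPM + 1).

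**Figure D2:**
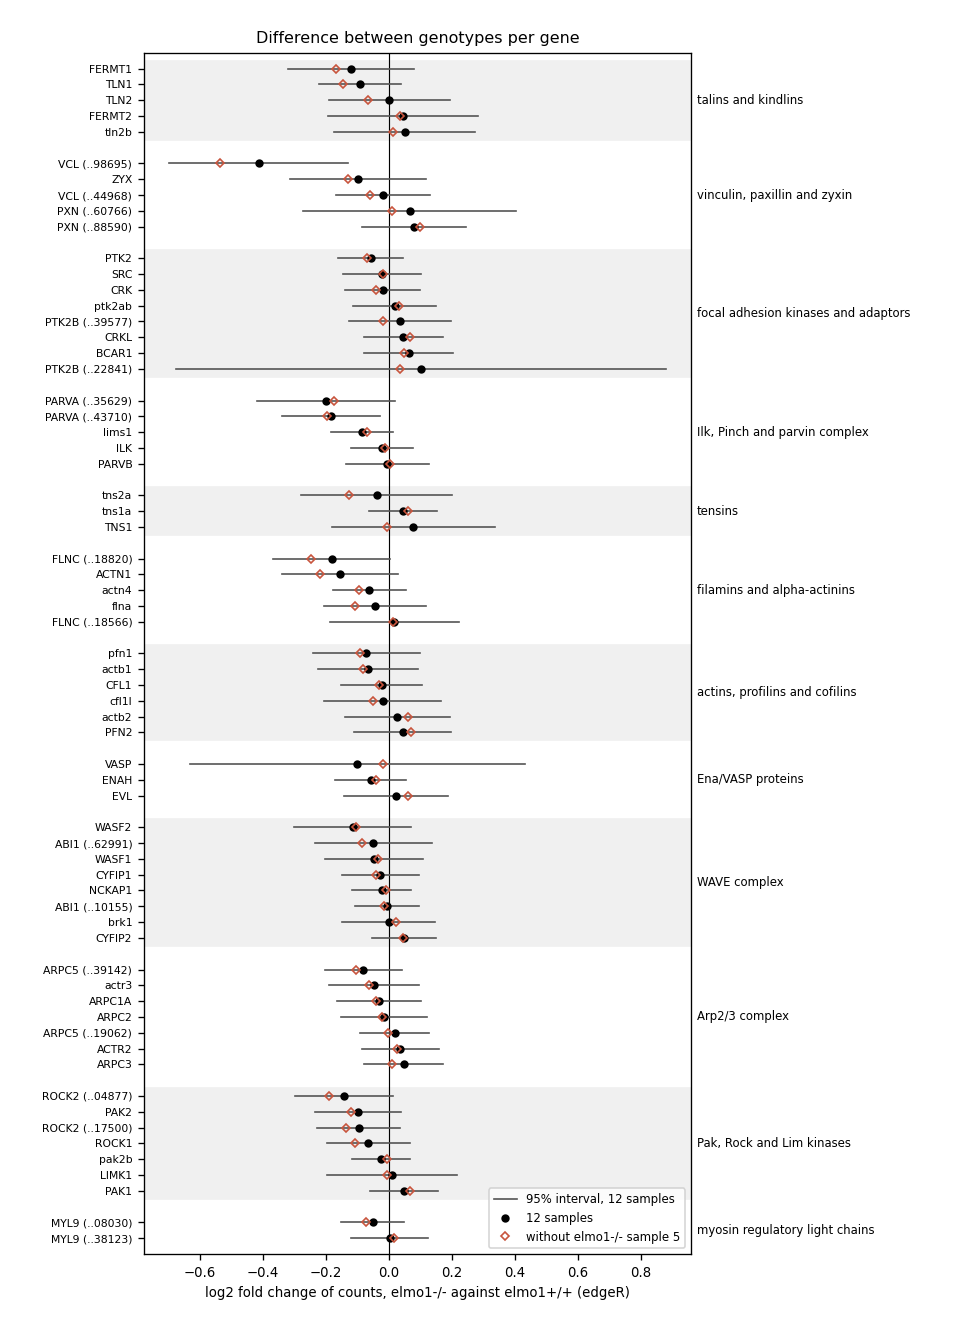
Log2FC of counts, elmo1-/- against elmo1+/+, for each gene reported here by role, with the edgeR estimate from 12 samples (black points), its 95% interval (lines) and the estimate without elmo1-/- sample 5 (open diamonds). Most intervals span 0, the less abundant VCL copy is the lowest at -0.41, and the diamonds of the filamins and alpha-actinins lie left of the points in all genes of that group that are plotted.

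Talins and kindlins, the proteins that bind and activate integrins, were expressed at low levels, with a summed TPM of 29.8 ± 1.9 in elmo1+/+ and 27.7 ± 3.6 in elmo1-/- larvae (SD, n = 6 each). TLN1, the talin of most cell types, had the highest level of this group at 9.99 ± 0.59 TPM in elmo1+/+ larvae. In CPM, TLN1 had a lowest value of 66.6, a median of 67.5 and a highest value of 72.4 in elmo1+/+ samples, and 56.7, 62.2 and 75.7 in elmo1-/- samples. The highest of all 12 values was that of elmo1-/- sample 5, while the other 5 elmo1-/- samples, up to 65.8 CPM, lay below every elmo1+/+ sample. The log2FC of TLN1 was -0.092 (SE 0.061; edgeR adjusted p = 0.929), and -0.15 (SE 0.048; edgeR adjusted p = 0.355) without elmo1-/- sample 5. The kindlins FERMT1 and FERMT2 and the second talin, TLN2 with its copy tln2b, had log2FC values from -0.12 to 0.049.

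Vinculin, which binds talin once the latter is stretched and ties it to actin, gave the largest difference of the list. VCL (ENSDARG00000098695) had a lowest, median and highest value of 8.44, 9.43 and 12.2 CPM in elmo1+/+ samples and of 5.76, 7.15 and 10.4 CPM in elmo1-/- samples. Apart from elmo1-/- sample 5 at 10.4 CPM, the elmo1-/- samples reached at most 7.19 CPM and did not overlap with elmo1+/+. The log2FC was -0.41 (95% interval -0.70 to -0.13), with an unadjusted p of 0.00741 and an adjusted p of 0.534 (edgeR). Without elmo1-/- sample 5 it was -0.54 (SE 0.11), with an adjusted p of 0.0842 (edgeR), which did not pass the threshold either. The other copy, VCL (ENSDARG00000044968), was more abundant, with a log2FC of -0.019 (95% interval -0.17 to 0.13). Transcripts of the scaffold protein paxillin came mostly from PXN (ENSDARG00000088590). As median and range, this copy had 38.4 CPM (36.2 to 48.0) in elmo1+/+ and 42.4 CPM (39.4 to 48.8) in elmo1-/- samples. Its log2FC was 0.080 (SE 0.078). ZYX, which recruits Ena/VASP proteins to strained actin bundles, had a log2FC of -0.10 (SE 0.10).

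The focal adhesion kinases and adaptors relay the integrin signal. Fak is encoded by ptk2ab and PTK2, and Src, Crk and the Cas protein encoded by BCAR1 act with it, the Crk and Cas pair passing the signal on to Dock1. The log2FC values of the 8 genes ran from -0.059 to 0.10, and 3 lay below 0. ptk2ab was the most abundant by TPM and had a lowest, median and highest value of 43.3, 47.4 and 55.5 CPM in elmo1+/+ and of 46.5, 48.1 and 52.4 CPM in elmo1-/- samples, so that the elmo1-/- values lay inside the elmo1+/+ range. CRK and CRKL had log2FC values of -0.019 (SE 0.056) and 0.046 (SE 0.059). PTK2B (ENSDARG00000022841), a copy of the related kinase Pyk2, varied widely within a genotype, from 1.43 to 8.45 CPM among elmo1+/+ and from 2.10 to 7.77 CPM among elmo1-/- samples, and how reads were shared with its copy is not given in the sources used here.

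The Ilk, Pinch and parvin complex couples integrins to actin, and in zebrafish it is known for its part in holding heart and skeletal muscle together. All 5 genes had log2FC values below 0, with a median of -0.085, and none passed the adjusted threshold. Without elmo1-/- sample 5, 4 of 5 lay below 0. PARVA (ENSDARG00000043710) had a lowest, median and highest value of 10.9, 12.7 and 13.8 CPM in elmo1+/+ and of 10.3, 10.9 and 11.9 CPM in elmo1-/- samples. The elmo1-/- median lay at the lowest elmo1+/+ value, and the ranges overlapped. The log2FC was -0.18 (95% interval -0.34 to -0.027; unadjusted p = 0.0244, edgeR adjusted p = 0.726). PARVA (ENSDARG00000035629), with medians of 4.11 CPM in elmo1+/+ and 3.69 CPM in elmo1-/- samples, had a log2FC of -0.20 (SE 0.10). lims1, which encodes the Pinch adaptor, had medians of 65.0 and 61.2 CPM and a log2FC of -0.085 (SE 0.046; edgeR adjusted p = 0.887). ILK and PARVB, by contrast, were at -0.022 (SE 0.046) and -0.0052 (SE 0.061). In this complex elmo1-/- sample 5 was not high: its median deviation was -0.047, within the -0.092 to 0.025 of the other elmo1-/- samples.

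Tensins, which bind integrin tails and actin in mature adhesions, were represented by tns1a, TNS1 and tns2a. tns1a was the steadiest of the 66 genes among elmo1+/+ samples, with 81.1 to 86.7 CPM and a coefficient of variation of 2.28%, and ranged from 77.6 to 93.6 CPM in elmo1-/- samples. Its log2FC was 0.046 (SE 0.051). TNS1 and tns2a had log2FC values of 0.078 (SE 0.12) and -0.040 (SE 0.11).

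Filamins and alpha-actinins cross-link actin filaments, the filamin C copies mainly in muscle. Of 7 genes, 6 had a log2FC below 0, with a median of -0.062. The median was -0.11 without elmo1-/- sample 5, -0.095 without elmo1-/- sample 1 and -0.034 without elmo1-/- sample 4. FLNC (ENSDARG00000018820) had a lowest, median and highest value of 19.7, 21.9 and 26.0 CPM in elmo1+/+ and of 17.1, 19.3 and 23.8 CPM in elmo1-/- samples. Its log2FC was -0.18 (SE 0.088; edgeR adjusted p = 0.823), whereas the other copy, FLNC (ENSDARG00000018566), was at 0.018 (SE 0.097). ACTN1 had 54.3, 58.5 and 70.7 CPM in elmo1+/+ and 43.6, 52.6 and 65.0 CPM in elmo1-/- samples in the same order, and a log2FC of -0.15 (SE 0.086; edgeR adjusted p = 0.894), which was -0.099 without elmo1+/+ sample 4, the highest of its genotype. In elmo1-/- samples the highest value of both genes was again that of sample 5. actn4, the most abundant gene of this group by TPM, ranged from 147.1 to 159.6 CPM in elmo1+/+ and from 130.5 to 161.9 CPM in elmo1-/- samples, with a log2FC of -0.062 (SE 0.055). flna, the filamin of most cells, was at -0.044 (SE 0.076).

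**Figure D3:**
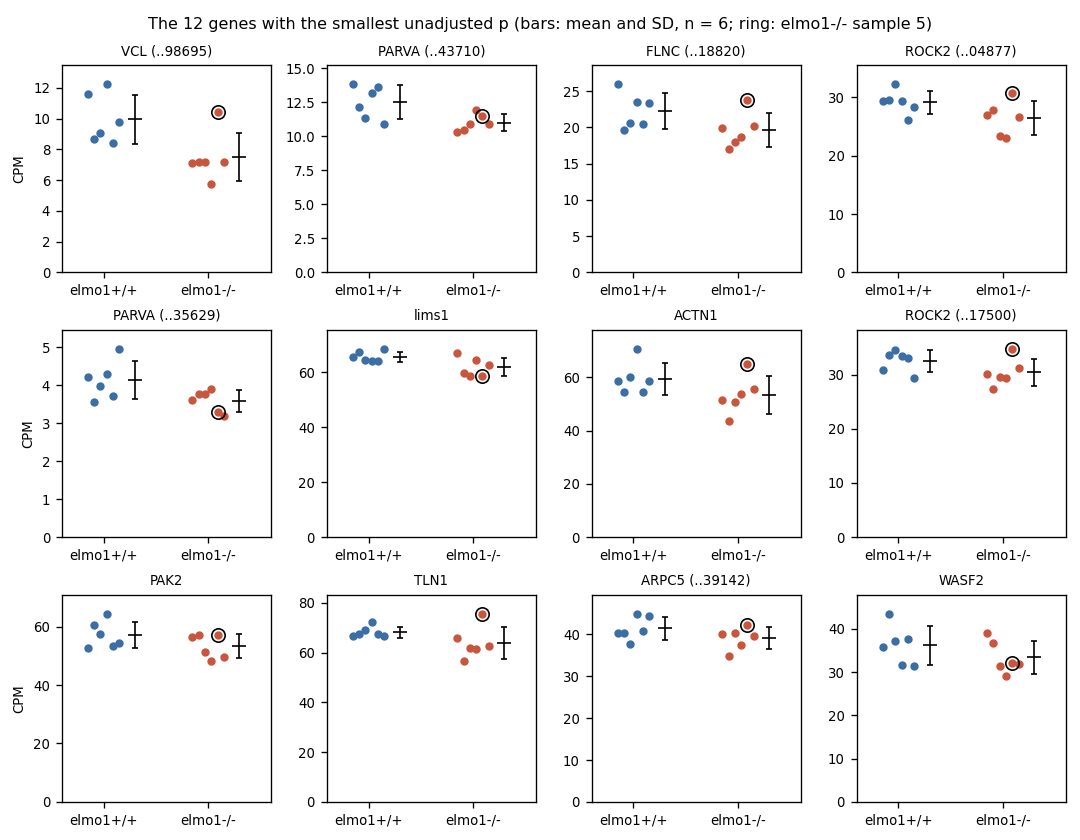
CPM per sample of the 12 genes with the smallest unadjusted p, with elmo1+/+ samples in blue, elmo1-/- samples in red, elmo1-/- sample 5 ringed, and bars for the mean and SD (n = 6 each). All axes start at 0, the genotypes overlap in each panel, and in the less abundant VCL copy and TLN1 the ringed sample is the elmo1-/- value that overlaps with elmo1+/+.

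The actins and the proteins that feed and sever filaments were by far the most abundant of the list. The cytoplasmic beta-actin genes, often taken as reference genes in PCR, reached 4258 ± 352 TPM for actb2 and 1455 ± 181 TPM for actb1 in elmo1+/+ larvae (SD, n = 6). actb2 had a lowest, median and highest value of 5228, 5517 and 6566 CPM in elmo1+/+ and of 5103, 5648 and 6880 CPM in elmo1-/- samples, and the ranges overlapped over most of their length. The log2FC was 0.027 (95% interval -0.14 to 0.19) for actb2 and -0.066 (95% interval -0.23 to 0.095) for actb1. The profilins pfn1 and PFN2, which load actin monomers, were at -0.072 (SE 0.080) and 0.043 (SE 0.072). The cofilins CFL1 and cfl1l, which sever filaments and are switched off by Lim kinase, were at -0.023 (SE 0.060) and -0.020 (SE 0.087).

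Among the Ena/VASP proteins, which extend filaments at their growing ends, EVL was the most abundant, with 67.8 ± 7.9 TPM in elmo1+/+ and 65.3 ± 7.0 TPM in elmo1-/- larvae (SD, n = 6 each). EVL ranged from 42.0 to 58.0 CPM in elmo1+/+ and from 43.6 to 55.9 CPM in elmo1-/- samples, with a log2FC of 0.022 (SE 0.078). VASP was the least abundant gene of the list, with 0.64 ± 0.22 TPM in elmo1+/+ and 0.58 ± 0.16 TPM in elmo1-/- larvae, and the 95% interval of its log2FC ran from -0.63 to 0.43.

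The WAVE complex, the effector through which active Rac starts branched actin, was measured by 8 genes. Their log2FC values ran from -0.12 to 0.048 with a median of -0.025, and 7 of 8 lay below 0. WASF2, which encodes the Wave2 subunit that binds Arp2/3, had a lowest, median and highest value of 31.5, 36.4 and 43.5 CPM in elmo1+/+ and of 29.1, 32.0 and 39.1 CPM in elmo1-/- samples. Its log2FC was -0.12 (95% interval -0.30 to 0.071; edgeR adjusted p = 0.951), and -0.056 without elmo1+/+ sample 2. brk1, the smallest subunit and the most abundant by TPM, ranged from 54.0 to 66.3 CPM and from 52.5 to 67.8 CPM, with a log2FC of -0.0013 (SE 0.069). The Rac-binding subunits CYFIP1 and CYFIP2 and their partner NCKAP1 were at -0.027 (SE 0.057), 0.048 (SE 0.048) and -0.023 (SE 0.045).

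The 7 genes of the Arp2/3 complex, which nucleates the branches, had log2FC values from -0.081 to 0.046, with 4 of them below 0. ARPC2, the most abundant, had a lowest, median and highest value of 124.3, 133.6 and 160.9 CPM in elmo1+/+ and of 122.8, 140.7 and 143.6 CPM in elmo1-/- samples. Its log2FC was -0.015 (95% interval -0.15 to 0.12). ARPC5 (ENSDARG00000039142), with 37.7 to 44.9 CPM in elmo1+/+ and 34.9 to 42.2 CPM in elmo1-/- samples, had the lowest log2FC of the complex, -0.081 (SE 0.058; edgeR adjusted p = 0.945). By TPM the measured genes were unequal, with 142.2 ± 11.4 for ARPC2, 99.5 ± 7.0 for ARPC3 and 15.4 ± 1.2 for ARPC5 (ENSDARG00000039142) in elmo1+/+ larvae (SD, n = 6).

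Pak kinases act downstream of Rac, Rock kinases drive contraction through myosin, and Lim kinase receives input from both. Of these 7 genes, 5 had a log2FC below 0, with a median of -0.066. Without elmo1-/- sample 5 the median was -0.11 with 6 of 7 below 0, and without elmo1+/+ sample 1 it was -0.038. ROCK2 (ENSDARG00000004877) had a lowest, median and highest value of 26.2, 29.4 and 32.3 CPM in elmo1+/+ and of 23.0, 26.8 and 30.8 CPM in elmo1-/- samples, the highest elmo1-/- value being that of sample 5. The log2FC was -0.14 (SE 0.073; edgeR adjusted p = 0.857). ROCK2 (ENSDARG00000017500) had 29.4, 33.2 and 34.6 CPM in elmo1+/+ and 27.3, 29.9 and 34.8 CPM in elmo1-/- samples in the same order, and a log2FC of -0.096 (SE 0.062). Sample 5 was here the highest of all 12 samples. ROCK1 was at -0.066 (SE 0.062). PAK2 ranged from 52.8 to 64.4 CPM with a median of 55.8 in elmo1+/+ and from 48.2 to 57.2 CPM with a median of 54.0 in elmo1-/- samples. The ranges overlapped, and the Pak genes were at -0.099 (SE 0.064) for PAK2, -0.025 (SE 0.044) for pak2b and 0.047 (SE 0.050) for PAK1. pak2b, the most abundant of the group by TPM, ranged from 78.8 to 86.4 CPM in elmo1+/+ and from 76.0 to 84.9 CPM in elmo1-/- samples. LIMK1 was at 0.0099 (SE 0.098).

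Myosin regulatory light chains set the contraction of actin bundles in smooth muscle and non-muscle cells. MYL9 (ENSDARG00000038123) ranged from 46.9 to 57.6 CPM in elmo1+/+ and from 47.8 to 53.9 CPM in elmo1-/- samples, with a log2FC of 0.0018 (SE 0.058). MYL9 (ENSDARG00000008030) was at -0.052 (SE 0.047).

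The contribution of elmo1-/- sample 5 was examined next, as the comparison of the genotypes was set to be made with and without this sample. The sample titles do not set it apart from the other elmo1-/- samples, and why it was singled out is not stated. This sample was the highest of the 6 elmo1-/- samples in 28 of the 66 genes (42.4%) and the lowest in 8 (12.1%), where it was the highest in 21.4% and the lowest in 20.1% of all genes tested. The median over the 66 genes of the deviation from each gene's mean log2 CPM was 0.065 in this sample, against -0.060 to 0.0056 in the other elmo1-/- samples and -0.020 to 0.047 in the elmo1+/+ samples. By role, sample 5 stood at 0.36 in the tensins, 0.20 in the talins and kindlins, 0.19 in the vinculin, paxillin and zyxin group and 0.18 in the filamins and alpha-actinins, in each of these above the other elmo1-/- samples. It stood at -0.19 in the Ena/VASP proteins and at -0.020 in the WAVE complex. Other samples also stood far from 0. In the tensins, elmo1+/+ sample 2 was at 0.31 and elmo1-/- sample 4 at -0.26. The latter was at -0.36 in the vinculin, paxillin and zyxin group. elmo1-/- sample 2 was at -0.22 in the talins and kindlins and -0.19 in the filamins and alpha-actinins. elmo1-/- sample 4 was the lowest of its genotype in 22 of the 66 genes, but the share over all genes was not counted for this sample.

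Without this sample, 0 of 66 genes passed an adjusted p of 0.05 by edgeR, where 0.306% of 21928 genes did. An unadjusted p under 0.05 was then found for 7 of the 66 genes (10.6%), and for 8.81% of the whole set tested. Leaving out any other single sample gave 1 to 4 such genes by edgeR, beside 5.03% to 6.63% of all genes tested. The higher count was thus particular to leaving out sample 5. All 7 genes found without sample 5 were lower in elmo1-/- larvae, as were 4.68% of all genes at that p, and 4.12% were higher. These were VCL (ENSDARG00000098695), PARVA (ENSDARG00000043710), FLNC (ENSDARG00000018820), ACTN1, TLN1 and both ROCK2 copies. Their log2FC values moved from -0.18 to -0.25 for FLNC, from -0.15 to -0.22 for ACTN1, from -0.14 to -0.19 for ROCK2 (ENSDARG00000004877), from -0.096 to -0.14 for ROCK2 (ENSDARG00000017500) and from -0.18 to -0.20 for PARVA, with edgeR adjusted p from 0.345 for FLNC to 0.491 for the latter ROCK2 copy. The genotypes no longer overlapped in 2 of the 66 genes, VCL (ENSDARG00000098695) and TLN1, in both of which elmo1-/- was lower. Sample 5 was the only elmo1-/- value that had overlapped in these genes, so the separation follows from leaving it out. Overlap without other samples was not examined. All genes tested held 1.26% without overlap, 0.675% lower and 0.588% higher. The median log2FC of the 66 genes was -0.037 without sample 5, beside 0.0033 over all genes tested, and 46 of 66 lay below 0, as did 48.9% of all genes tested. The summed level of the skeletal muscle markers in sample 5 was 30254 CPM, the lowest of all 12 samples. The other elmo1-/- samples had 34711 to 39932 CPM and the elmo1+/+ samples 31642 to 36850 CPM. For the endothelium markers, sample 5 stood at 155.6 CPM, above the 134.2 to 148.7 CPM of the other elmo1-/- samples. The elmo1+/+ samples had 165.3 to 178.2 CPM. This sum covers kdrl, cdh5, FLI1 and TIE1, and FLI1 gave most of it in elmo1+/+ samples. The endothelium sums can therefore not be read apart from the lower FLI1 value given above. For the epidermis markers, sample 5 had 19637 CPM, within the 16258 to 19909 CPM of the other elmo1-/- samples. The smooth muscle, leukocyte and neuron sums of sample 5 lay within the range of the other elmo1-/- samples too. The 20 most abundant genes took 17.0% of its counts, against 17.7% to 19.1% in the other elmo1-/- samples. The part of muscle or endothelium transcripts in the values of this sample was not tested.

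**Figure D4:**
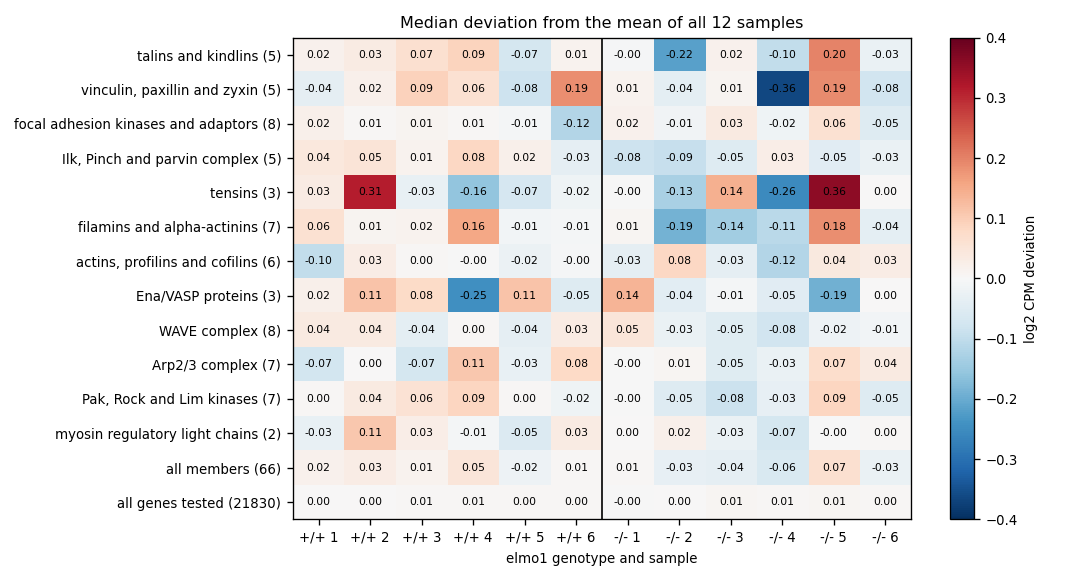
Median over the genes of each role group of the deviation from each gene's mean over the 12 samples, in log2 CPM, for each sample (columns) and role group (rows, number of genes in parentheses). elmo1-/- sample 5 stands at 0.20 in the talins and kindlins and 0.18 in the filamins and alpha-actinins, where elmo1-/- sample 2 stands at -0.22 and -0.19. The row of all genes tested stays close to 0, as the normalization of the samples aims at.

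To see which copy gave more transcripts in whole larvae, the share of TPM was taken within 15 pairs of zebrafish copies in the list. The pairs were chosen after the values had been seen. PXN (ENSDARG00000060766) supplied 9.06% ± 1.66 of paxillin TPM, and actb1 supplied 25.5% ± 3.1 of the TPM of the beta-actin pair in elmo1+/+ larvae (SD, n = 6). ROCK2 (ENSDARG00000004877) supplied 73.1% ± 1.8 of ROCK2 TPM in these larvae. In CPM the same copy was the lower one, with a median of 29.4 against 33.2 for the other copy. The most even pair was FLNC, in which FLNC (ENSDARG00000018566) supplied 54.7% ± 4.0 of TPM in elmo1+/+ larvae. Within-sample ratios of the copies were then compared between genotypes in log2 CPM. Of the 15 pairs, 0 differed after adjustment (exact permutation tests, two-sided, adjusted by Benjamini-Hochberg for 15 pairs, smallest adjusted p = 0.292), and 1 had an unadjusted p under 0.05. This was the vinculin pair, in which VCL (ENSDARG00000044968) supplied 67.2% ± 3.7 of TPM in elmo1+/+ and 73.1% ± 2.9 in elmo1-/- larvae, with a log2 ratio higher by 0.40 in elmo1-/- (exact permutation p = 0.0195, n = 6 each). The pair holds VCL (ENSDARG00000098695), the gene with the smallest unadjusted p of the list, so its ratio is not a separate result. The actb1 and actb2 ratio differed by -0.083 (exact permutation p = 0.468, n = 6 each).

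**Figure D5:**
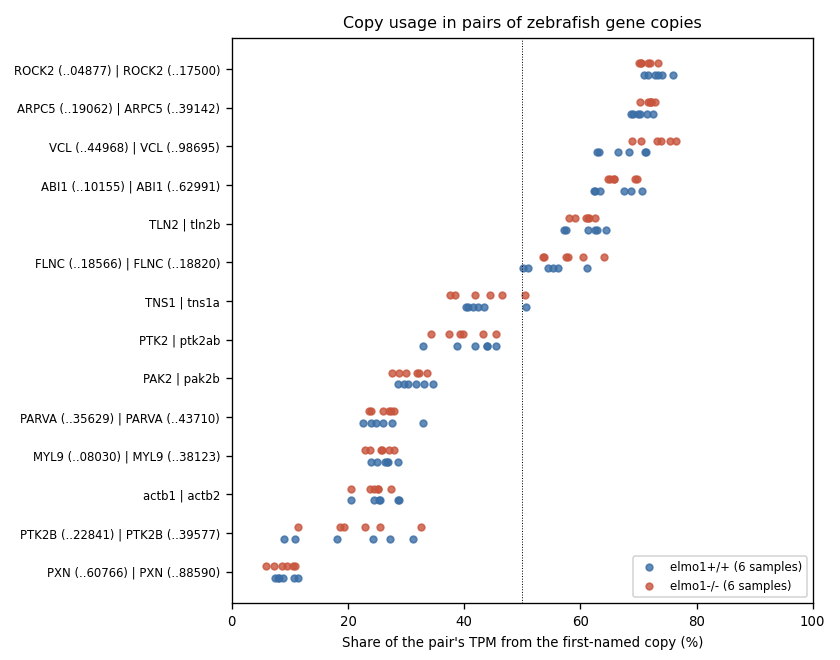
Share of the pair's TPM supplied by the first-named copy in the pairs of zebrafish gene copies reported here, in percent, with 1 point per sample for the 6 elmo1+/+ and 6 elmo1-/- samples. The vinculin pair has a mean share of 67.2% in elmo1+/+ and 73.1% in elmo1-/- samples, and the genotypes overlap in all pairs plotted.

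The genes around this list were read from the same fit. Of 22 tested genes of the Elmo, Dock and Rac module, 0 passed the adjusted threshold and 1, elmo1, had an unadjusted p under 0.05 (edgeR). DOCK1, the exchange factor partner of Elmo1, ranged from 25.2 to 29.1 CPM in elmo1+/+ and from 23.0 to 30.0 CPM in elmo1-/- samples, and rac1a, its target, from 54.1 to 59.4 CPM and from 53.1 to 58.9 CPM. Their log2FC values were -0.037 (SE 0.068) and 0.012 (SE 0.045). Over all genes tested, 0.234% passed, 6.16% had an unadjusted p under 0.05 and 48.3% lay below 0. Of 23 tested integrin genes, 0 passed and 0 had an unadjusted p under 0.05, with a median log2FC of -0.072 and 17 genes below 0. Without elmo1-/- sample 5, 3 integrin genes had such a p, where 8.81% of the whole set did, and the median was -0.12. Of 58 other genes of focal adhesions and actin, 0 passed and 7 (12.1%) had an unadjusted p under 0.05, 5 lower and 2 higher, beside 3.1% lower and 3.06% higher over all genes, with a median of -0.031. Without sample 5 that count was 11 of 58, where 8.81% of the whole set had such a p, and the median was -0.016. The directions of these 11 were not counted.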

How the data were processed

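The submitters' processing notes name Trim Galore (version 0.6.4), kallisto (version 0.4.6) and the build GRCz11. The annotation and the summing to genes are not given in the sources used here. Per sample, the authors deposited expected counts and TPM values for 32520 Ensembl genes. The deposited expected counts are not whole in 38.0% to 39.6% of values and were rounded to whole numbers, as the test takes counts. The deposited TPM values, scaled by the authors for length and depth, sum to 1e+06 per sample. Symbols were taken from a table that names 29201 identifiers (89.8%).

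Genes were filtered with filterByExpr (minimum count 10), which left 21830, normalized with TMM factors and compared by edgeR's quasi-likelihood test (edgeR 4.0.16, R 4.3.3), with genotype as the only term and Benjamini-Hochberg adjustment over all genes. CPM were scaled by these factors, and their log2 values include a prior count of 2. The scripts had been tested on simulated data. There the edgeR test recovered 97 of 100 genes changed by an absolute log2 fold of 1, but 52 of 100 at 0.5. Smaller changes were not simulated. Alternatives were DESeq2 (1.42.0), limma-trend (limma 3.58.1), other factors and filters, a replicate block and leaving out each replicate. Permutation tests went through all divisions of the samples, and their Benjamini-Hochberg adjustment used SciPy 1.17.1.

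Named genes are members past the threshold, the 12 with the smallest unadjusted p, the member with the highest mean TPM of each role group, elmo1, dock1 and rac1a, and called genes of the other lists. Other members are given by their fold changes, some chosen after their values were seen. The members and lists were chosen with earlier results of these data known. Copies that share reads are uncertain. No sequences were used here. Some members enter the counts and medians but are not reported here by name or plotted.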

Additional observations from a re-analysis of the deposited data

Results flagged for a closer look

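In each genotype, the 6 CPM values of the 23 genes described by sample and of elmo1, and the 6 medians over the list, were searched by Dixon's criterion for a sample whose gap to its nearest neighbour took up most of the range. Of 50 sets of 6 values, 3 held such a sample, and 2.5 are given by chance at 1 in 20. For ACTN1 this was elmo1+/+ sample 4 with 70.7 CPM, whereas its 5 replicates ran from 54.3 to 60.1 CPM, and without that sample the log2 fold change of the gene was -0.099 in place of -0.15. For actb2, elmo1+/+ sample 2 had 6566 CPM and its 5 replicates ran from 5228 to 5576 CPM. For VCL (ENSDARG00000098695) it was elmo1-/- sample 5 with 10.4 CPM, whereas its 5 replicates ran from 5.76 to 7.19 CPM, and without that sample the edgeR adjusted p of the gene was 0.0842.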

How the results depend on the processing

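The count of 0 called genes among the 66 was found under every alternative run at an adjusted p under 0.05, and at 0.1 with all 12 samples. Without elmo1-/- sample 5, VCL (ENSDARG00000098695) had an edgeR adjusted p of 0.0842, which lies under 0.1. Over all genes, DESeq2 called 97 in place of 51, and leaving out a replicate gave 34 to 67. The replicate block called 60 of all genes and 0 of the 66. Same-numbered samples correlated with r from -0.0334 to 0.304 in their deviations, and not every r exceeded 0.1, so the numbers were not taken to pair the samples. By number, 4 of 6 elmo1+/+ and 3 of 6 elmo1-/- samples correlated best with their own number, so the rule does not show that same-numbered samples were unrelated.

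The median log2 fold change of the 66 genes moved from -0.023 to -0.067 with log2(TPM + 1) and to -0.078 with log2(TPM + 0.1), where the median of all genes moved to -0.038 and -0.044. It lay between -0.037 and -0.016 without a replicate, and stood at -0.024 with the replicate block.

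Of the 23 genes described by sample, 15 kept their sign in all fits. With log2(TPM + 1) and log2(TPM + 0.1), the sign reversed for ptk2ab (-0.12 and -0.12), EVL (-0.052 and -0.052), actb2 (-0.024 and -0.024), MYL9 (ENSDARG00000038123; -0.043 and -0.044) and tns1a (-0.0038 and -0.0043), and for the same MYL9 with upper-quartile factors (-0.0015). Without a replicate, the fold changes that changed sign ranged from -0.012 to 0.061 for ptk2ab, -0.044 to 0.026 for PARVB, -0.022 to 0.072 for EVL, -0.033 to 0.075 for actb2, -0.020 to 0.043 for MYL9 (ENSDARG00000038123), -0.038 to 0.033 for brk1 and -0.043 to 0.034 for ARPC2. VCL (ENSDARG00000098695) ranged from -0.54 to -0.35 (edgeR adjusted p from 0.0842 to 0.884). elmo1 passed the threshold with DESeq2 alone (-0.26, adjusted p = 0.00817). The cause was not tested. For VASP, at under 1 TPM, depth limits what can be seen.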
